A study of Mus musculus with 2 samples.

Results

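Pericytes and vascular smooth muscle cells are the mural cells that wrap blood vessels, and 10 genes used to recognise them are described here out of the 55536 mouse genes measured. The genes were chosen by symbol from textbook markers, 6 for pericytes (Pdgfrb, Rgs5, Cspg4, Vtn, Abcc9 and Notch3) and 4 for the contractile apparatus of smooth muscle (Tagln, Cnn1, Smtn and Lmod1). The tissue was heart of male B6CASTF1/J mice aged 4 days, the F1 hybrids of C57BL/6J and CAST/EiJ, with no treatment or mutation given. There were 2 stranded total RNA libraries with ribosomal RNA reduced, each made from 300 ng with ERCC spike-ins added, labelled as biological replicates 1 and 2. The replicates carry different animal numbers but 1 donor record, so if both came from 1 animal the spread between them is technical alone. All libraries form 1 group, so the design holds no contrast, and with 2 libraries the likeness of a member's pattern to that of any other gene could not be measured.

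In capillaries, pericytes share a basement membrane with the endothelium, which recruits them by releasing PDGF-B onto the receptor PDGFR-beta. Around arteries, smooth muscle cells hold actin and myosin filaments whose genes are switched on by serum response factor (SRF) with its partner myocardin, and Notch signals from neighbouring cells maintain them. Developing heart muscle cells also use several smooth muscle contractile genes, so in bulk heart tissue these genes do not mark vessels alone.

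Mouse genes had 31512596 expected counts in replicate 1 and 35744013 in replicate 2, and spike-ins took 0.588% and 0.545% of all counts. Levels are TPM, abundance divided by transcript length and scaled to a fixed library total, so they can be compared between genes. Coordinates refer to mm10 and GENCODE M21. A gene is called expressed where both libraries gave it 1 TPM or more. Folds between genes are taken from the mean of the log2 TPM ratios of the libraries. Each ± is an SD over n = 2 libraries, and unnamed pairs of values are those of replicates 1 and 2. A second quantification of the same libraries, deposited beside the first, is given where it bears on a value. Markers of the heart's main cells were present, with 7 of 7 cardiomyocyte, 10 of 10 endothelial and 9 of 9 fibroblast markers expressed. Of skeletal muscle markers 1 of 7 was expressed, Acta1, at 538.74 TPM in replicate 1 and 154.99 in replicate 2. Myod1 was at 0 counts in both libraries, which allows up to 0.0952 CPM (counts scaled to a fixed library total, without length) in replicate 1 and 0.0839 in replicate 2. Of Schwann and glial markers 1 of 5 was expressed, and Olig2 was at 0 counts in both.

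Pericyte genes were plainly detected and the smooth muscle genes split. Rgs5, Abcc9 and Smtn had the highest means, 86.7, 79.8 and 85.9 TPM, while Lmod1, the smooth muscle leiomodin, stayed under 1 TPM in both libraries. Of the 10 members 9 were expressed, against a background of 23.8% of all mouse genes and 53.8% of nuclear protein-coding genes. All 6 pericyte members and 3 of the 4 smooth muscle members were among them. Together the members took 0.0401% of the mouse-gene TPM in replicate 1 and 0.0391% in replicate 2, of which the pericyte members held 0.0244% and 0.0242%. The median expressed nuclear protein-coding gene had 12.2 TPM and the 90th percentile was 60.8 TPM, so Rgs5, Smtn and Abcc9 stood above the 90th percentile and 5 further members (Tagln, Cspg4, Pdgfrb, Notch3 and Cnn1) stood between it and the median. Levels in bulk tissue do not tell fewer cells of a type apart from less RNA per cell.

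**Figure D1:**
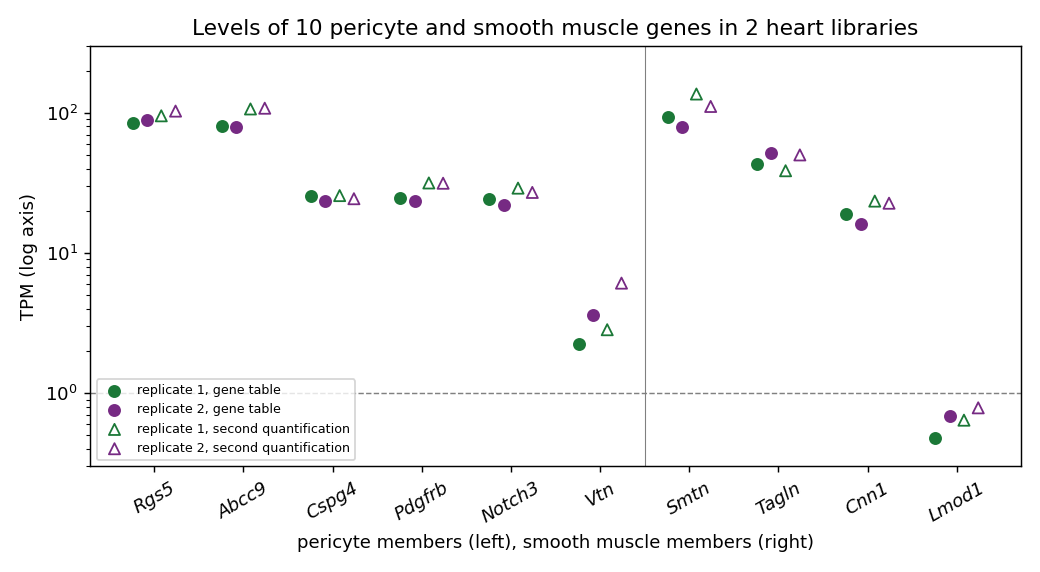
TPM of each member on a log axis, pericyte members left and smooth muscle members right, with circles for the gene tables and triangles for the second quantification, replicate 1 in green and replicate 2 in purple. Of the 10 members, 9 lie above the dashed line at 1 TPM, and Lmod1 lies below it at 0.48 and 0.69 TPM in the gene tables.

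Among the receptors, Pdgfrb, which receives PDGF-B on pericytes (ENSMUSG00000024620.11, chromosome 18, 61045150 to 61085061, plus strand), had 24.62 TPM in replicate 1 and 23.59 in replicate 2, a mean of 24.1 ± 0.728. Its counts were 3174 and 3608. The coefficient of variation was 3.02%, and 1 transcript, Pdgfrb-201, held 98.9% and 100% of the TPM. Its ligand gene Pdgfb, made by endothelium, had 20.86 and 21.30 TPM, and the log2 ratio of Pdgfrb over Pdgfb was 0.19 ± 0.06, against 0.06 and -0.02 in the second quantification. Pdgfra, the sister receptor typical of fibroblasts, was lower than Pdgfrb in both libraries at 11.83 and 16.39 TPM. All 5 genes of the PDGF list were expressed, led by Pdgfa at 24.7 ± 0.247 TPM, with Pdgfd at 3.89 ± 0.424 TPM and Pdgfc lowest at 1.83 ± 0.262 TPM.

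Notch3, the Notch receptor characteristic of mural cells (ENSMUSG00000038146.8, chromosome 17, 32120820 to 32166852, minus strand), had 24.18 TPM in replicate 1 and 21.94 in replicate 2, a mean of 23.1 ± 1.58 from 4603 and 4969 counts. Nearly all of it, 98.9% and 99.2%, was assigned to Notch3-201. Notch1, which endothelium uses, had 30.42 and 23.22 TPM, a range that overlaps that of Notch3. Notch2 had 14.79 and 16.84 TPM and Notch4, another endothelial receptor, had 19.25 and 12.27 TPM, both under Notch3 in each library. All 13 Notch partners and targets were expressed. Among the ligands, Jag1, which presents to smooth muscle, had 9.01 ± 0.247 TPM, Jag2 13.6 ± 2.04 TPM, and Dll1, the lowest of the list, 2.63 ± 0.233 TPM, while Dll4 had 13.25 and 8.74 TPM. Rbpj, the DNA-binding partner of the cleaved receptor, had 18.2 ± 0.573 TPM, and the target genes were Hes1 at 21.9 ± 1.40 TPM, Nrarp at 14.4 ± 1.82 TPM, Heyl at 12.4 ± 0.679 TPM and Hey2 at 10.8 ± 0.771 TPM, with Hey1 at 7.60 and 6.39 TPM. An antisense gene, Gm17276, overlaps Notch3 and had 0.95 and 0.16 TPM.

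Cspg4 encodes the NG2 proteoglycan of the pericyte surface (ENSMUSG00000032911.6, chromosome 9, 56865033 to 56899870, plus strand). It had 25.31 TPM in replicate 1 and 23.34 in replicate 2, a mean of 24.3 ± 1.39 from 3666 and 4078 counts. In the first quantification the ranges of Cspg4 and Pdgfrb overlapped, as did those of Pdgfrb and Notch3. Neighbours among these 3 genes of surface proteins were thus not separated there by the spread of the libraries. They differ in how much of the level is coding. The coding transcript Cspg4-201 held 48.5% and 52.3% of the gene's TPM, and 3 retained-intron transcripts held the other 51.5% and 47.7%. In the second quantification the coding share was larger, 75.9% and 80.0%, so the gene's coding level depends on the quantification.

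Rgs5, a GTPase activator that shortens signalling from G protein-coupled receptors and a leading pericyte marker (ENSMUSG00000026678.10, chromosome 1, 169655501 to 169695813, plus strand), was the highest member. It had 84.92 TPM in replicate 1 and 88.46 in replicate 2, a mean of 86.7 ± 2.50 from 7786 and 9719 counts, and Rgs5-201 held 93.4% and 94.6% of it. Every other RGS gene on the list was lower in both libraries. Rgs3 averaged 31.1 ± 2.77 TPM, Rgs12 24.4 ± 5.02 TPM and Rgs2 21.7 ± 9.72 TPM, with Rgs2 at 28.53 TPM in replicate 2 and 14.78 in replicate 1. Rgs4, a close relative of Rgs5, had 4.16 ± 0.0495 TPM, which places Rgs5 20.9-fold above it. Rgs10 had 3.85 ± 0.481 TPM and Rgs16 was lowest at 1.77 ± 0.636 TPM.

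Vtn encodes vitronectin, an adhesive protein of plasma that liver secretes in bulk and that brain pericytes also make (ENSMUSG00000017344.4, chromosome 11, 78499091 to 78502324, plus strand). It had 2.24 TPM in replicate 1 and 3.62 in replicate 2, a mean of 2.93 ± 0.976 from only 80 and 125 counts. Its place as the lowest pericyte member held in each library and in both quantifications, the second giving 2.83 and 6.09 TPM. The coding transcript Vtn-201 held 83.5% of the TPM in replicate 1 and 58.2% in replicate 2, with the retained-intron transcript Vtn-204 holding the remainder, so the difference between the libraries lay mainly in the transcript that makes no protein. Vtn-201 alone had 1.87 and 2.10 TPM. Of the hepatocyte markers 3 of 8 were expressed, with sums over the list of 15.5 TPM in replicate 1 and 16.8 in replicate 2. The expressed ones were Trf at 7.02 and 8.86 TPM, Ahsg at 4.08 and 4.13 TPM, and Alb at 2.00 and 1.69 TPM. Trf and Ahsg were above Vtn in each library and Alb was below it, while Fgb was lowest at 0.04 and 0.05 TPM. All 5 vitronectin partners examined were expressed. Its receptor subunits were Itgb1 at 265 ± 24.4 TPM, Itgb5 at 31.7 ± 0.877 TPM, Itgav at 24.9 ± 1.33 TPM and Itgb3 at 2.81 ± 0.120 TPM, and Plaur, the urokinase receptor, which also binds vitronectin, had 2.46 ± 0.311 TPM.

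Abcc9 encodes SUR2, the regulatory subunit of ATP-sensitive potassium (KATP) channels, which pairs with the pore Kir6.1 (Kcnj8) in pericytes and smooth muscle and with Kir6.2 (Kcnj11) in heart muscle (ENSMUSG00000030249.15, chromosome 6, 142587862 to 142702315, minus strand). It had 80.26 TPM in replicate 1 and 79.24 in replicate 2, a mean of 79.8 ± 0.721 from 13117 and 15525 counts, the smallest relative spread among the members. The pore genes were lower. Kcnj8 had 10.58 and 9.10 TPM and Kcnj11 had 34.17 and 25.73 TPM, so Abcc9 exceeded Kcnj8 by 8.13-fold and Kcnj11 by 2.69-fold. Abcc8, the SUR1 gene that atrial muscle also uses, had 51.38 and 33.40 TPM, under Abcc9 in both libraries. Which cells the Abcc9 RNA came from was not tested.

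Its transcripts carry a further distinction. A 176-base alternative exon (chr6:142593967-142594142) that holds its own stop codon gives the SUR2A type of C-terminal end, known from heart muscle, and skipping it gives the SUR2B type, known from smooth muscle. Transcripts are classed here by whether they hold this exon, and reads over each end were not counted apart. The last 45 codons of each end are shown because the encoded proteins part there. Both read 5′ to 3′ on the minus strand of mm10 from the GENCODE M21 transcripts, at chr6:142594008-142594142 with the alternative exon and chr6:142590369-142590503 without it, and capitals mark the 66 of 135 positions at which they differ.
Abcc9-202, with the alternative exon: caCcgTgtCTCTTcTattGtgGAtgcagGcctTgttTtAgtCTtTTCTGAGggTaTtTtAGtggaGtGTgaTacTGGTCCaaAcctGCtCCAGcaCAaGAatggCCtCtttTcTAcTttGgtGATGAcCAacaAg
Abcc9-203, skipping the alternative exon: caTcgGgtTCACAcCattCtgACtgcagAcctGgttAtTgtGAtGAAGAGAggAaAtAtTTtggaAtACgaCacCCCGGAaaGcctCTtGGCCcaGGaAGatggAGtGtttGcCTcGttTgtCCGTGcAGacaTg
The ends are 51.1% identical base for base. The corresponding stretch of Abcc8 shares 51.9% of its bases with the end that has the exon and 69.6% with the end that skips it. In the first tables the 4 transcripts with the exon held 42.5% of Abcc9 TPM in replicate 1 and 41.2% in replicate 2, and Abcc9-203, which skips it, held 50.3% and 52.7%. In the second quantification the exon-bearing forms held 48.4% and 47.6% and the skipping form 40.8% and 42.7%. Both forms were therefore assigned similar levels in both libraries, but which of them leads turned with the quantification. The remaining 7.26% and 6.07% in the first tables, and 10.8% and 9.67% in the second, belonged to Abcc9-205, which stops upstream of both ends.

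The smooth muscle members were led by Smtn, smoothelin, an actin-binding protein of contractile smooth muscle (ENSMUSG00000020439.17, chromosome 11, 3517523 to 3540612, minus strand). It had 92.76 TPM in replicate 1 and 79.05 in replicate 2, a mean of 85.9 ± 9.69 from 4008 and 4353 counts, a range that overlaps those of Rgs5 and Abcc9. Smtnl2, a smoothelin-like relative, had 25.27 and 26.62 TPM, and Smtnl1 had 0.02 and 0.06 TPM. Smtn exceeded Myh11, the smooth muscle myosin heavy chain, by 13.6-fold, with Myh11 at 5.57 and 7.12 TPM.

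Smoothelin exists as a short form, known from visceral smooth muscle, and a long form, known from vascular smooth muscle, which start at different promoters. The first 90 coding bases of one transcript of each are shown because the forms part at their starts. They read 5′ to 3′ on the minus strand of mm10 chromosome 11 from the GENCODE M21 transcripts, with the start codon in capitals. Coding begins in the exon stretch 3527428 to 3527826 in Smtn-201 and in the 51-base stretch 3537323 to 3537373 in Smtn-202, whose shown bases run on into the next exon.
Smtn-201, short form: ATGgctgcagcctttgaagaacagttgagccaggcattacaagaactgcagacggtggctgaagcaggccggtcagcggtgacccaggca
Smtn-202, long form: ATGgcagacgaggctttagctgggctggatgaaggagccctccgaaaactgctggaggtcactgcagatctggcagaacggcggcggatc
Smtn-201 encodes 436 codons and Smtn-202 encodes 921, and the short form starts 11355 bases inside the start of Smtn-202, at position 3527937. The short form held 39.1% of Smtn TPM in replicate 1 and 42.3% in replicate 2, against 31.0% and 34.6% for the 5 long forms. In the second quantification the short form held 32.0% and 35.4% and the long forms 31.1% and 36.2%, so neither form led there in both libraries. Between 23.0% and 36.9% across libraries and quantifications went to 4 incomplete transcripts, which were left out of both classes. They were set aside because they do not reach the end of the gene, and their starts were not used to class them.

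**Figure D2:**
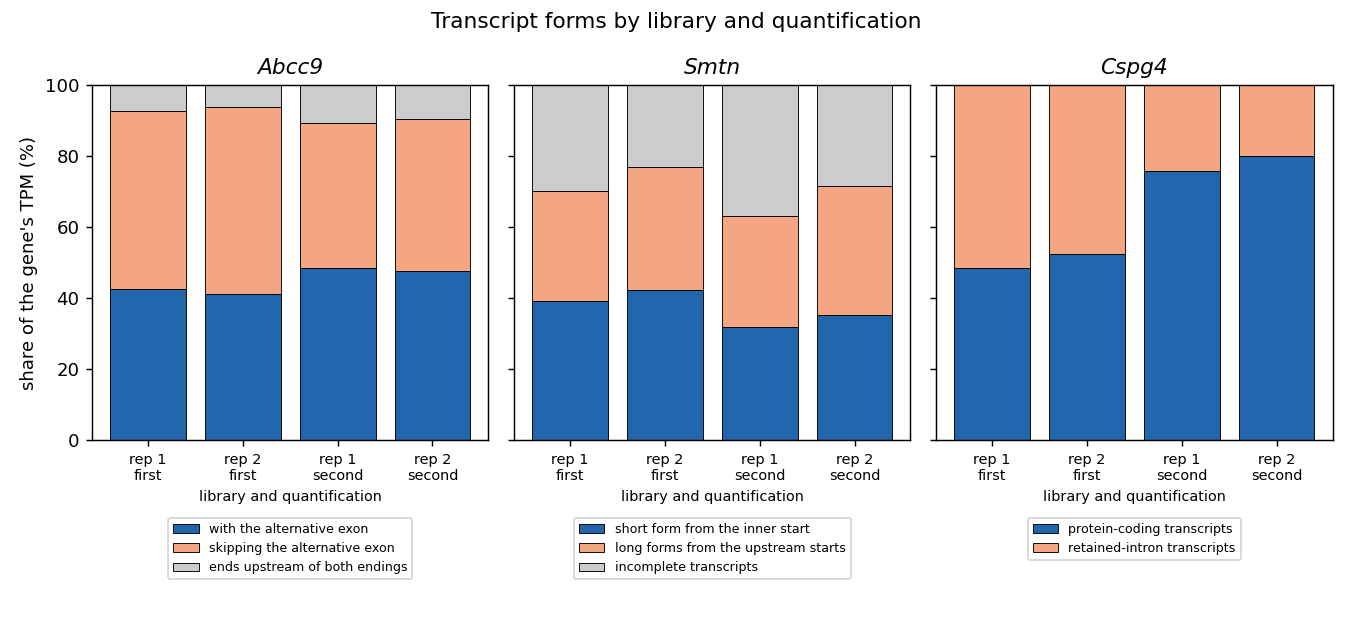
Share of each gene's TPM, in percent, by transcript class for Abcc9, Smtn and Cspg4, with a bar per library in the first tables and in the second quantification. The Abcc9 skipping form leads at 50.3% and 52.7% in the first tables and trails at 40.8% and 42.7% in the second, and the coding share of Cspg4 is higher in the second.

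Tagln, transgelin or SM22-alpha, an actin-binding protein of smooth muscle that developing heart muscle also expresses (ENSMUSG00000032085.5, chromosome 9, 45929619 to 45936058, minus strand), had 43.22 TPM in replicate 1 and 51.88 in replicate 2, a mean of 47.6 ± 6.12. Its counts of 1059 and 1612 give a larger difference than its TPM. The full transcript Tagln-201 held 59.1% and 65.0% of the TPM, and a 369-base fragment, Tagln-202, held 38.5% and 33.0%. The second quantification gave that fragment 0 and Tagln-201 96.3% and 97.3%. Tagln2, the broadly expressed relative, was higher than Tagln in both libraries at 110.18 and 96.67 TPM, and Tagln3, the neuronal one, had 0.32 and 0.24 TPM. On the opposite strand Tagln overlaps Pcsk7, at 11.62 and 10.57 TPM, and the antisense gene Gm48529, at 1.36 and 1.25 TPM, and whether the counting used strand is not given in the sources used here.

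Cnn1, calponin 1, which restrains the myosin ATPase of smooth muscle (ENSMUSG00000001349.5, chromosome 9, 22099216 to 22109630, plus strand), had 19.00 TPM in replicate 1 and 15.98 in replicate 2, a mean of 17.5 ± 2.14 from 549 and 552 counts. Its broadly expressed relatives were higher in both libraries, Cnn2 at 37.01 and 47.29 TPM and Cnn3 at 63.42 and 67.89 TPM. No transcript of Cnn1 led everywhere. Cnn1-201, which encodes the full protein, held 32.0% and 31.0%, while Cnn1-205 held 20.9% in replicate 1 and 37.9% in replicate 2. Cnn1-202, of only 370 bases, held 27.1% and 17.6%, but 0 in the second quantification. In the second quantification Cnn1-205 held 51.5% and 53.8% and Cnn1-201 28.0% and 23.3%, so Cnn1-205 led in all but replicate 1 of the first tables. Among the 9 members with several transcripts, 8 had the same leading transcript in both libraries and both quantifications, and Cnn1 was the exception.

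Lmod1, leiomodin 1, which nucleates actin filaments in smooth muscle (ENSMUSG00000048096.7, chromosome 1, 135324807 to 135368065, plus strand), was the lowest member. It had 0.48 TPM in replicate 1 and 0.69 in replicate 2, a mean of 0.585 ± 0.148. Only 45 and 76 counts lie behind it, 1.43 CPM with an exact binomial 95% interval of 1.04 to 1.91 in replicate 1 and 2.13 CPM with 1.68 to 2.66 in replicate 2, so it was detected above the limit that a count of 0 allows. The striated muscle leiomodins were far higher. Lmod2, the cardiac one, had 74.48 and 76.70 TPM, 131-fold above Lmod1, and Lmod3 had 26.65 and 20.06 TPM, 40.2-fold above it. Of the 8 paralogs of the contractile members, 6 were expressed, and Smtnl1 and Tagln3 were not.

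Set in order of mean TPM the members ran Rgs5, Smtn, Abcc9, Tagln, Cspg4, Pdgfrb, Notch3, Cnn1, Vtn and Lmod1. Of the 9 pairs of neighbours in that order, 5 had ranges over the libraries that did not overlap. Neighbours that could not be separated in the first quantification were Rgs5 and Smtn, Smtn and Abcc9, Cspg4 and Pdgfrb, and Pdgfrb and Notch3. The second quantification moved only members within the groups so formed, placing Smtn first and Abcc9 ahead of Rgs5, and Cspg4 after Notch3. The ranges of these pairs were apart in it, with Smtn above Rgs5 and Abcc9, and Pdgfrb above Cspg4 and Notch3. No member was over 1.5-fold higher or lower there in both libraries, where 25.3% of 14546 genes were over 1.5-fold higher and 1.02% over 1.5-fold lower. TPM in the second quantification was higher as a whole, with a median fold of 1.37. Relative to that median, Tagln lay lowest at log2 ratios of -0.62 and -0.51, followed by Cspg4 at -0.44 and -0.40. Smtn was the only member above it in both libraries, at 0.10 and 0.03.

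The other genes of both programmes frame these levels. All 14 further pericyte genes were expressed, with a median of 10.51 TPM, against 24.2 TPM for the 6 pericyte members. Des, desmin, was highest at 336 ± 31.4 TPM, a gene that heart muscle uses in quantity, and Foxs1, a forkhead factor of pericytes, was lowest at 4.12 ± 0.495 TPM. All 16 further contractile genes were expressed as well, with a median of 54.2 TPM, against 32.5 TPM for the 4 smooth muscle members. They ran from Myl9, a regulatory myosin light chain of smooth muscle, at 601 ± 97.4 TPM to Mustn1, a small muscle protein, at 3.24 ± 0.481 TPM. Acta2, smooth muscle alpha-actin, had 340.97 and 630.65 TPM, 9.79-fold above Tagln and 17.9-fold above it in the second quantification. Of the 10 regulators of smooth muscle genes all were expressed. Gata6 was highest by mean at 65.2 ± 1.24 TPM, although Srf was above it in replicate 2, and Elk1 was lowest at 5.95 and 6.04 TPM.

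**Figure D3:**
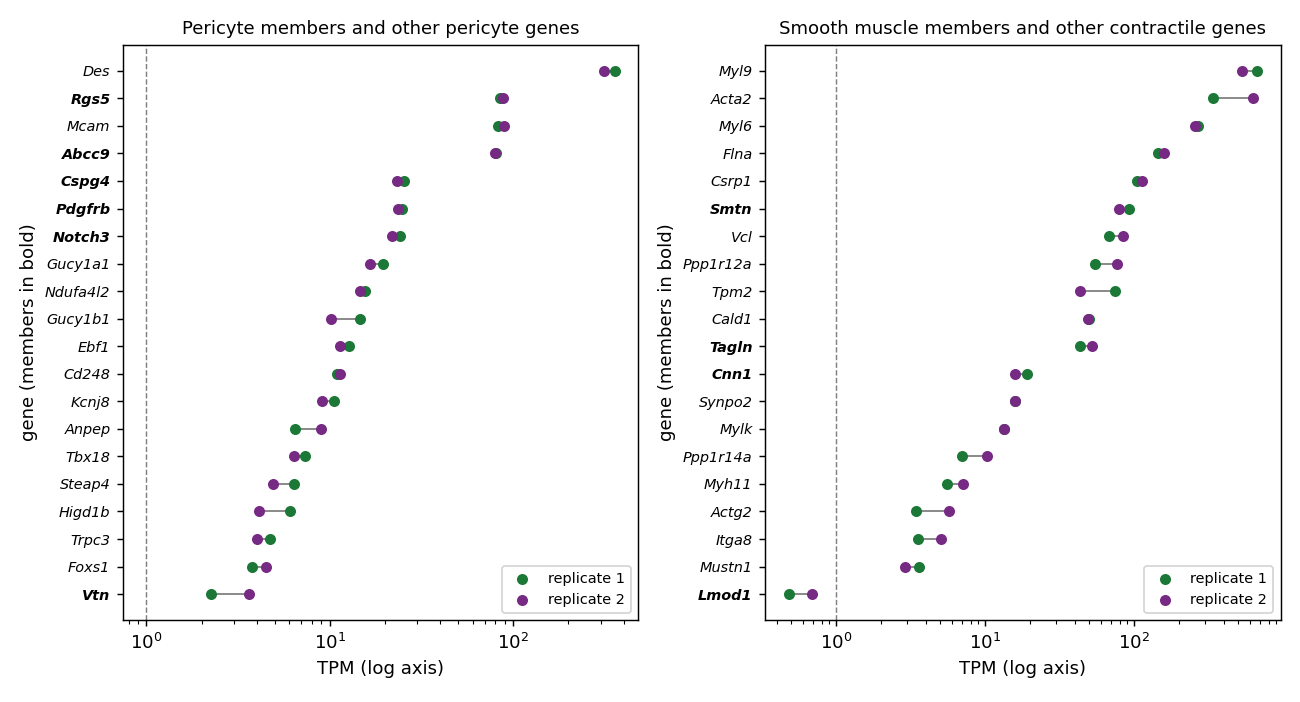
TPM on a log axis in replicate 1 (green) and replicate 2 (purple) for the pericyte members and 14 other pericyte genes (left) and the smooth muscle members and 16 other contractile genes (right), members in bold, with a dashed line at 1 TPM. Vtn and Lmod1 are the lowest genes of their panels. Rgs5 and Abcc9 stand below Des, and Smtn at 85.9 TPM stands below several contractile genes led by Myl9 at 601 TPM.

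Differences between the libraries were measured as log2 ratios of scaled counts, replicate 2 over replicate 1, over the 16271 genes that passed a filter on low counts. All 10 members passed. Of them 1 differed by over 1.5-fold, against 12.3% of filtered genes, the sum of 4.22% higher in replicate 2 and 8.09% lower. It was Lmod1, 1.54-fold higher in replicate 2. With counts scaled to library totals no member passed. With deposited TPM, and in the second quantification, Lmod1 fell short of 1.5-fold at log2 ratios of 0.52 and 0.40 and Vtn passed in its place at 0.69 and 0.61. The members' median log2 ratio was 0.10, against -0.00 for all filtered genes, and it was -0.040 from the deposited TPM. The background differed with count level, with a median of 0.058 for genes averaging 1000 counts or more and -0.115 for those averaging 40 to 150. With 1 group no test of these ratios exists, and intervals given with them cover counting error only.

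Of the 6 pericyte members, Vtn stood apart from the other 5, which lay nearer to 0. Pdgfrb had a log2 ratio of 0.07 with an interval of -0.00 to 0.14, Cspg4 0.04 with -0.03 to 0.10, and Notch3 -0.01 with -0.06 to 0.05. Abcc9 at 0.13 (interval 0.09 to 0.16) and Rgs5 at 0.20 (0.16 to 0.25) were above 0 beyond counting error, yet inside the span of -0.32 to 0.42 that holds the 5th to 95th percentile of the 4971 well counted genes, those averaging 1000 counts or more. Vtn had 0.52, with a wide interval of 0.11 to 0.95. That value and the 0.62 of Lmod1 (0.09 to 1.21) lay inside the span of -1.04 to 0.70 of the 2612 thinly counted genes, those averaging 40 to 150 counts.

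Among the smooth muscle members, Smtn at 0.00 (interval -0.06 to 0.06) and Cnn1 at -0.11 (-0.28 to 0.06) had intervals that held 0. Tagln had a log2 ratio of 0.49 (0.38 to 0.60), above the 95th percentile of well counted genes, and 0.26 when the deposited TPM was used. Of the 16 other contractile genes, 13 were higher in replicate 2 and 3 lower by scaled counts, and 10 higher and 6 lower by TPM. By scaled counts 5 were over 1.5-fold higher and 1 over 1.5-fold lower, against 4.22% and 8.09% of filtered genes. Their median log2 ratio was 0.27, against -0.00 for all filtered genes. Acta2 had 0.97 (0.94 to 1.00) and Myh11 0.51 (0.39 to 0.64), and Tpm2, a tropomyosin, went the other way at -0.71 (-0.79 to -0.62). Of the 10 regulators 5 were higher in replicate 2 and 5 lower by scaled counts, with a median log2 ratio of 0.03. Srf and Klf4 were the 2 over 1.5-fold higher, and 0 were over 1.5-fold lower. Srf had 88.15 TPM in replicate 2 and 41.31 in replicate 1, a log2 ratio of 1.25 (1.18 to 1.32). Klf4 had 18.85 TPM in replicate 2 and 11.22 in replicate 1, a ratio of 0.95 (0.82 to 1.07). Myocd, myocardin, stood at 54.95 TPM in replicate 2 against 57.99 in replicate 1, with a ratio of -0.05 (-0.10 to -0.00).

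Markers of other cells differed between the libraries too. Of 9 fibroblast markers 8 were higher in replicate 2 by scaled counts, with a median log2 ratio of 0.50, and 8 by TPM, with sums of 1991 TPM in replicate 2 and 1458 in replicate 1. Of 5 epicardial markers 5 were higher there by scaled counts and 4 by TPM, with sums of 45.5 TPM in replicate 2 and 41.7 in replicate 1. Of 10 endothelial markers 6 were higher in replicate 2 by scaled counts but 2 by TPM, with sums of 547 TPM in replicate 2 and 627 in replicate 1. Cardiomyocyte markers were higher in replicate 2 for 2 of 7 by scaled counts and 1 of 7 by TPM, with sums of 23123 TPM in replicate 2 and 25020 in replicate 1. The median log2 ratio of all filtered genes was -0.00, and the share of them higher in replicate 2 was not counted beside these numbers. The part of these cells in the ratios of the members was not tested.

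**Figure D4:**
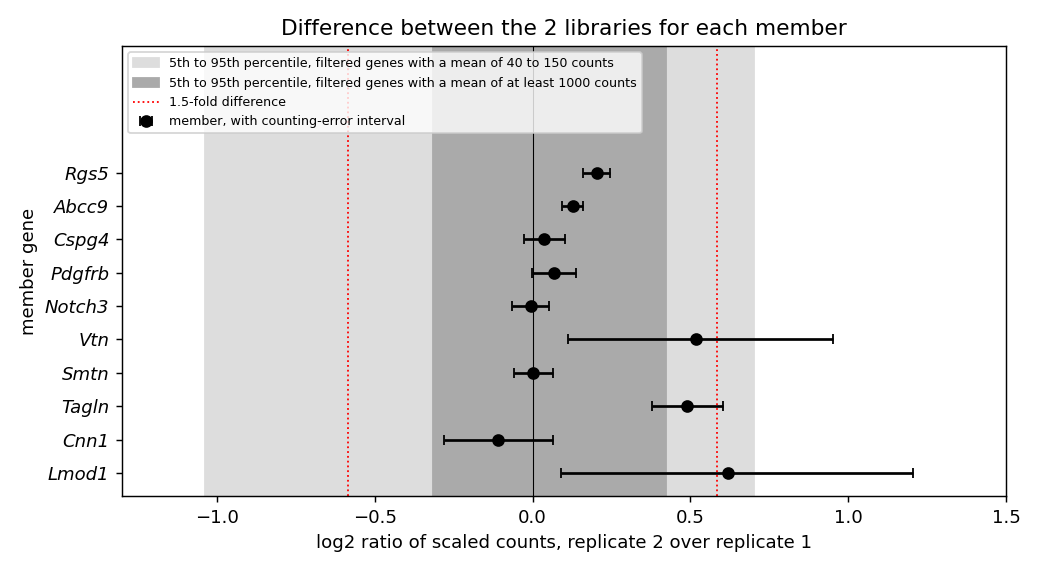
Log2 ratio of scaled counts, replicate 2 over replicate 1, for each member (points) with its counting-error interval (bars), over the 5th to 95th percentile span of well counted genes (dark band) and thinly counted genes (light band), red dotted lines marking a 1.5-fold difference. Tagln at 0.49 lies outside the dark band, and Vtn and Lmod1, with the fewest counts, have the widest bars.

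The promoter windows of the members, 250 bases before to 50 after the start in RefSeq on GRCm38.p6, were searched on both strands. The motifs were the CArG box, which SRF binds, and TGGGAA, the core of the RBPJ site. The CArG box was searched only in its exact form, CC, then A or T alone, then GG, with no mismatch allowed. Windows were used for 8 members, Pdgfrb and Tagln not being analysed here. The exact CArG box was in 0 of the 8, and 1.63% of 32851 windows of this length hold it. CArG-like boxes that depart from the exact form were not counted, so their absence is not shown. TGGGAA was in 3 of the 8, those of Vtn, Abcc9 and Smtn, and 25.6% of windows hold it. The Smtn window, chr11:3539243-3539542, does not hold the inner start of the short form at 3527937, so the promoter of that form was not searched. A match is a run of letters and not a bound site, and sites outside the window were not searched.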

How the data were processed

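Total RNA of heart from 4-day-old mice was measured in 2 libraries of 1 group. Per the file headers, the authors deposited expected counts and TPM by gene and by transcript, and, from a second quantification, estimated counts and TPM by transcript. Per the submitters' notes the build is mm10 with GENCODE M21. The aligner, versions, settings and use of strand in counting are not given in the sources used here. A TPM interval of unstated level is deposited as signal columns, and the TPM of 9 members lay inside it in both libraries, while that of Abcc9 lay above the upper bound in both.

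TPM was used as deposited, and spike-ins entered the authors' total. Second-table transcripts were summed per gene. Expected counts were rounded to whole numbers, scaled by TMM after filterByExpr in edgeR 4.0.16 (R 4.3.3), and turned to log2 ratios with a prior count of 2. Rows that name no gene held 6.31e-06% and 1.11e-05% of counts and were left out with the spike-ins. Intervals are exact binomial at the 95% level, and the floor for a count of 0 is 3 counts; both cover counting error only, as PCR copies are not independent molecules. Scaling was tested on simulated data. Alternatives were DESeq2 1.42.0 size factors, spike-in or library totals, deposited TPM, other thresholds, denominators and prior counts, no filter, the second quantification and each library alone.

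Named genes are all members, the highest and lowest gene of each list, all genes of the PDGF, Notch, KATP, RGS, vitronectin and paralog lists, and transcripts with at least 10% of a gene's TPM. Acta2, Myh11, Tpm2, Srf, Klf4, Myocd, Alb, Ahsg and Fgb were added after their values were seen or because a pair or result turns on them, and not every name the rule gives is printed. One listed gene is not reported here. No test across samples was run. The members, lists and tests were chosen with earlier results of these data known.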

Additional observations from a re-analysis of the deposited data

How the results depend on the processing

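Of the 10 members 9 were expressed, and the count stayed within 8 to 9 over other thresholds, the second quantification and either library alone. The members' share of mouse-gene TPM, 0.0396% on average, became 0.123% of expected counts, 0.0888% of nuclear protein-coding TPM and 0.0492% in the second quantification, and was 0.0391% to 0.0401% with one library left out. Their median log2 ratio of 0.10 was 0.032 with library totals and -0.040 with deposited TPM, a value that also changes the unit from counts to length-divided abundance; with DESeq2 size factors, spike-in totals, another prior count, no filter or the second quantification it was 0.10 to 0.14. The count over 1.5-fold, 1, was 0 with library totals. It was 1 with deposited TPM and in the second quantification, but there the gene was Vtn and not Lmod1. The cause was not tested. The share of the leading transcript moved by more than the spread between the libraries for 8 of 9 members in the second quantification. No paired analysis was possible because there is 1 group. The ratios of Vtn and Lmod1 are limited by their low counts, and every SD rests on 2 values.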
